A study of Mus musculus with 36 samples.

Results

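The BCL2 family was followed through the response of mouse spleen dendritic cells (DCs) to poly IC, a synthetic double-stranded RNA. Its members were taken as the probes whose gene symbol in the array annotation is Bcl2, Bcl2l1, Mcl1, Bcl2l11, Bad, Bid, Bak1 or Bax. The annotation held 20 probes for 7 of these 8 genes, out of 16593 gene symbols in all, and 18 of the 20 probes were detected on at least 3 arrays and kept. Bax matched no probe and is not analysed here.

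The DCs came from C57BL/6 mixed bone marrow chimeras, in which WT CD45.1 cells and either PRR-/- or IFNAR-/- CD45.2 cells developed side by side. PRR-/- cells lacked both MDA5 (Ifih1) and TLR3, the sensors of poly IC, and IFNAR-/- cells lacked the type I interferon receptor. CD11chi CD3- DX5- B220- DCs were sorted by CD45.2 after 50 µg poly IC was given intraperitoneally, so that KO and WT cells had shared 1 host and its cytokines. By the study's methods its mice were 7 to 8 weeks old when used. The groups were PRR-/- at 4 h (4 samples from 5 arrays), IFNAR-/- at 4 h (4 samples from 5 arrays), WT at 4 h (8 samples), IFNAR-/- at 14 h (3 samples), WT at 14 h (6 samples) and unstimulated DCs (8 samples from 9 arrays). There was no PRR-/- group at 14 h. The labels give the unstimulated samples no genotype, and by the study's methods WT and KO cells of PBS-injected chimeras and cells of poly IC-injected PRR-/- mice were pooled as negative controls. For heat maps of its 4 h experiment the study describes a sample as 6 mice pooled. The labels do not give this, nor whether the samples of a group came from separate mice. The p-values thus measure the spread between these samples, by that description pools and not single animals. This spread may in part be technical.

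Proteins of the BCL2 family decide whether the outer mitochondrial membrane stays closed or is opened to release cytochrome c. BCL2, BCL-XL (Bcl2l1) and MCL1 keep it closed by binding the effectors BAX and BAK (Bak1), which form the pores, and the BH3-only proteins BIM (Bcl2l11), BAD and BID either occupy the protective members or activate the effectors. BIM is known as a main regulator of the life span of DCs and lymphocytes, and FOXO transcription factors are known to drive its gene. Much of the control of these proteins is by binding, cleavage, phosphorylation and turnover, which an mRNA level does not show.

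Levels are bead signals on a log2 scale after quantile normalisation, on which the lowest measurable level was 6.49. A gene was represented by its brightest kept probe. The samples are bulk RNA, in which a change in the mix of cells cannot be told apart from a change per cell. A gene is called here when its adjusted p from limma was under 0.05 and its change at least 2-fold, and it is said to pass by adjusted p alone when the fold is left aside. The share of all 9606 genes tested that met the same rule is given beside each count of members.

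Each array detected 10428 to 12326 probes. At 4 h the PRR-/- arrays detected 10643 to 11392 and the WT arrays 10428 to 11099, all fewer than the 11492 to 11908 of unstimulated arrays. The IFNAR-/- arrays at 4 h, with 11140 to 11643, overlapped the unstimulated ones. The part of this difference in the member changes was not tested. Ifih1 was detected on 0 of 5 PRR-/- arrays and on 8 of 8 WT arrays at 4 h, and Tlr3 on 1 of 5 and 8 of 8. The Ifnar1 probe was detected on no array in any group, so it checks nothing. The summed signal of the type I interferon response genes at 4 h lay between 7370 and 9216 in IFNAR-/- samples, and WT samples held 111439 to 159066.

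Bcl2l11 was the member with the largest change, and by its brightest probe it rose in every group given poly IC. Its level by that probe was 10.56, 10.53, 10.90 and 10.23 in the PRR-/- samples at 4 h. It was 10.82, 10.20, 10.62 and 10.43 in the IFNAR-/- samples at 4 h, and in the 8 WT samples at 4 h the lowest was 10.41, the median 10.79 and the highest 11.20. In the 8 unstimulated samples the lowest was 8.09, the median 8.32 and the highest 9.10. All 16 samples taken at 4 h were thus above every unstimulated sample, and by this probe the 3 genotypes overlapped each other.

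The log2 change of Bcl2l11 at 4 h against unstimulated DCs was 2.08 ± 0.24 (SE) in PRR-/- DCs, a 4.24-fold rise (limma adjusted p = 7.11e-08). It was 2.05 ± 0.24 in IFNAR-/- DCs, 4.14-fold (limma adjusted p = 4.35e-07), and 2.30 ± 0.20 in WT DCs, 4.92-fold (limma adjusted p = 1.1e-10). The difference between IFNAR-/- and WT DCs at 4 h was -0.25 with a 95% interval of -0.74 to 0.24 (limma adjusted p = 0.524), and that between PRR-/- and WT DCs was -0.22 with an interval of -0.71 to 0.27 (limma adjusted p = 1). Neither difference was resolved by this probe, while a second probe, described with the probes of the gene, passed in both. Some samples of different groups were alike in genes other than the members, which grouped the samples at 4 h and some unstimulated ones into 3 sets, and within these Bcl2l11 was higher by 1.46 to 2.22 in PRR-/-, 1.66 to 1.92 in IFNAR-/- and 1.76 to 2.28 in WT DCs at 4 h. The samples at 14 h were not entered into this grouping, so it does not show whether they were like these sets. Of the samples entered, 4 unstimulated ones lay outside the sets.

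Markers of other cells moved at 4 h as well. The summed signal of 7 neutrophil markers at 4 h lay at 2324 to 3341 (PRR-/-), 1613 to 2666 (IFNAR-/-) and 1101 to 2275 (WT), beside 675 to 1094 in unstimulated samples, with 4, 3 and 2 of the markers called higher. The sum of 5 monocyte markers overlapped the unstimulated range of 8064 to 21120 in all 3 genotypes, at 13220 to 33361, 7988 to 14606 and 7217 to 22517 in the same order, and 3, 1 and 3 of the 5 were called higher, with 1 called lower in WT DCs. The sum of 2 red cell markers was 1871 to 3994, 1149 to 2714 and 2050 to 3998, with 449 to 1432 in unstimulated samples. The sum of 3 plasmacytoid DC markers was 1296 to 1745 in IFNAR-/- samples at 4 h and 2253 to 3711 in WT samples at 4 h, without overlap. The sum of 9 red pulp macrophage markers was 7617 to 12599 in PRR-/- samples at 4 h, above the 3985 to 6405 of unstimulated samples, with 4 called higher. IFNAR-/- and WT samples overlapped that range. The sum of 4 B cell markers was 587 to 704 in IFNAR-/- samples at 4 h, below the 732 to 1303 of unstimulated samples, while PRR-/- and WT samples overlapped that range. Of 10 conventional DC markers 2 were called lower in IFNAR-/- DCs at 4 h. The part of these signals in the member changes at 4 h was not tested.

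At 14 h the rise of Bcl2l11 was smaller in the IFNAR-/- DCs. Its level was 9.17, 9.20 and 10.06 in the 3 IFNAR-/- samples, and in the 6 WT samples at 14 h the lowest was 9.70, the median 10.35 and the highest 11.41. The highest IFNAR-/- sample lay above the lowest WT sample, so these groups overlapped, while all 3 IFNAR-/- samples lay above the unstimulated samples and below the IFNAR-/- samples at 4 h. The change against unstimulated DCs was 1.01 ± 0.26 in IFNAR-/- DCs, 2.01-fold (limma adjusted p = 0.0115), and 2.06 ± 0.21 in WT DCs, 4.17-fold (limma adjusted p = 4.73e-09). The direct difference, IFNAR-/- minus WT at 14 h, was -1.05 ± 0.28 (limma adjusted p = 0.00351). Whether the gap between IFNAR-/- and WT DCs differed between 14 h and 4 h was tested as an interaction, which gave -0.80 ± 0.37 (limma adjusted p = 0.141) and did not pass. With 1 sample left out in turn, the change in IFNAR-/- DCs against unstimulated DCs lay between 0.72 and 1.16, and it was no longer called without unstimulated sample 3, 6, 7 or 9 or IFNAR-/- sample 3. The difference from WT DCs then lay between -1.34 and -0.88 with a limma adjusted p of at most 0.0373, and missed 2-fold without WT sample 2 or 6 or IFNAR-/- sample 1 or 2.

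The IFNAR-/- samples at 14 h also differed from the others in markers of other cells. The summed signal of 5 monocyte markers was 35434 to 40334 in IFNAR-/- samples at 14 h, 1064 to 6758 in WT samples at 14 h and 8064 to 21120 in unstimulated samples, and 4 of the 5 were called higher in IFNAR-/- than in WT DCs at 14 h. The sum of 7 neutrophil markers was 3797 to 13851, 691 to 3102 and 675 to 1094 in the same groups, with 3 called higher. The sum of 9 red pulp macrophage markers was 8324 to 12486, 5613 to 7422 and 3985 to 6405, with 5 called higher. The defining markers Ccr2 of monocytes, Mmp8 of neutrophils and Cd5l of red pulp macrophages were detected on no array of any group, so these probes check nothing. Among the other markers F13a1 of monocytes was detected on 3 of 3 IFNAR-/- and 0 of 6 WT arrays at 14 h. Of the neutrophil markers, Retnlg was on 3 of 3 and 1 of 6 and Ngp on 2 of 3 and 1 of 6. Camp went the other way, on 1 of 3 and 3 of 6. Of the red pulp macrophage markers, C1qa was on 3 of 3 and 3 of 6. Cd163 was on 0 of 3 and 0 of 6, beside 7 of 9 unstimulated arrays. The T cell sum stayed near the floor in every group. Of the conventional DC markers, Xcr1 was on 3 of 3 IFNAR-/- and 3 of 6 WT arrays at 14 h, and Clec9a on 2 of 3 and 3 of 6. Both were on 9 of 9 unstimulated arrays. The other tested conventional DC markers were detected on every array. The part of these signals in the member differences at 14 h was not tested.

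In order of its group means, Bcl2l11 was highest in WT DCs at 4 h, then in PRR-/- DCs at 4 h, WT DCs at 14 h and IFNAR-/- DCs at 4 h, and neighbours among these 4 groups overlapped. It was lower in IFNAR-/- DCs at 14 h and lowest in unstimulated DCs. Over the 33 samples the genes whose levels most resembled those of Bcl2l11 were Il1rn, with a Pearson correlation of 0.934, Spred1, with 0.930, and Wsb2, with 0.927. These correlations describe samples that share arrays, groups and normalisation.

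**Figure D1:**
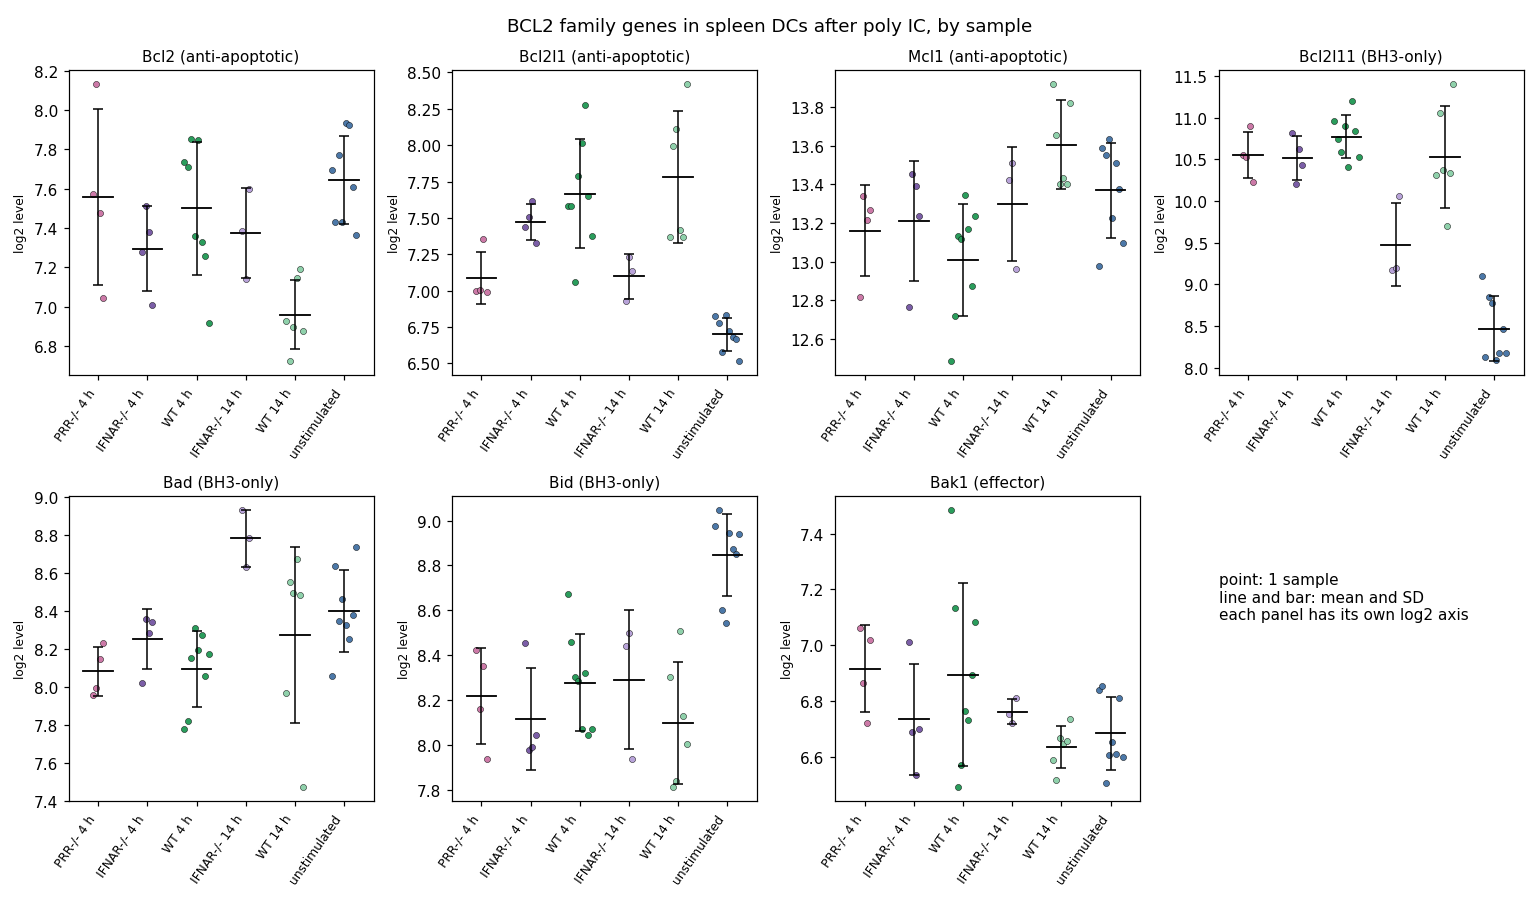
Log2 level (vertical axis, own range in each panel) of the 7 measured members in every sample, by group along the horizontal axis, with the mean and SD of each group. Bcl2l11 lies between 10.20 and 11.20 in all samples at 4 h, against 8.09 to 9.10 in unstimulated samples, and Bid lies highest in the unstimulated samples.

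Bcl2l11 was read by 4 probes, and at 4 h all of them were higher than in unstimulated DCs in each genotype. ILMN_2590638, designed on the transcript NM_009754, was higher by 2.27 in PRR-/-, 1.54 in IFNAR-/- and 1.84 in WT DCs at 4 h. ILMN_1229255, on NM_207680 like the brightest probe ILMN_3157568, was higher by 1.31, 1.08 and 1.75 in the same order. ILMN_3078327, also on NM_207680, was higher by only 0.32, 0.36 and 0.58, but it was detected on 0 of 9 unstimulated arrays, so that its unstimulated level is the floor of 6.49.

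Between the genotypes at 4 h the probes of Bcl2l11 differed. ILMN_1229255 lay between 7.74 and 8.06 in the PRR-/- samples, between 7.50 and 7.73 in the IFNAR-/- samples and between 8.04 and 8.63 in the WT samples. The IFNAR-/- samples were thus below all WT samples, and the PRR-/- samples overlapped the lower edge of WT. The difference from WT DCs was -0.44 in PRR-/- DCs (limma adjusted p = 0.0300) and -0.68 in IFNAR-/- DCs (limma adjusted p = 6.40e-06). By ILMN_2590638 these differences were 0.43 and -0.31, and by ILMN_3078327 -0.26 and -0.22 (limma adjusted p = 0.420 and 0.0644), and none of them passed.

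At 14 h the probes differed on whether Bcl2l11 in IFNAR-/- DCs was above the unstimulated level. The change was 0.40 by ILMN_2590638 (limma adjusted p = 0.581), 0.16 by ILMN_1229255 (limma adjusted p = 0.481) and 0.03 by ILMN_3078327, so that only the brightest of the 4 probes passed. With the mean of the kept probes in place of the brightest one, the change was 0.40 (limma adjusted p = 0.141). The comparison of IFNAR-/- with WT DCs at 14 h was less divided, with -1.03 by ILMN_2590638 (limma adjusted p = 0.0211) and -0.69 by ILMN_1229255 (limma adjusted p = 3.23e-05), while ILMN_3078327 gave -0.13 and did not pass (limma adjusted p = 0.374). By ILMN_1229255 the groups at 14 h did not overlap, since the 3 IFNAR-/- samples lay between 6.71 and 6.74 and the 6 WT samples between 7.14 and 7.75. The same probe was lower in WT DCs at 14 h than at 4 h by 0.90 (limma adjusted p = 3.81e-09), where the brightest probe differed by -0.24 (limma adjusted p = 0.408).

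**Figure D2:**
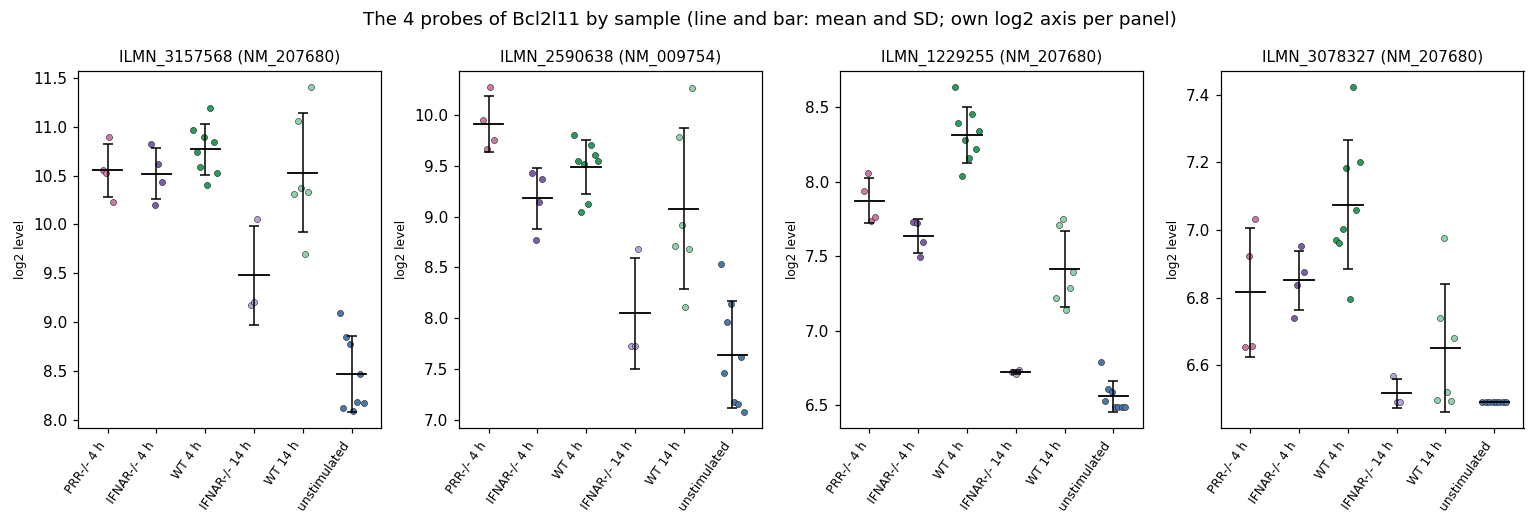
Log2 level of the 4 probes of Bcl2l11 in every sample (vertical axis, own range in each panel), by group, with mean and SD. In each panel the samples at 4 h lie above most or all unstimulated samples, and by ILMN_1229255 the 3 IFNAR-/- samples at 14 h sit between 6.71 and 6.74, and the WT samples of that time lie between 7.14 and 7.75.

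The promoters of Bcl2l11 and Bid are printed because these were the members that, by their brightest probes, rose and fell in every group given poly IC. They are the 250 bases before each RefSeq transcription start in GRCm38.p6, 5′ to 3′ on the gene's strand, at chr2:128125788-128126037 and chr2:128127325-128127574 (both + strand) for Bcl2l11 and at chr6:120916825-120917074 (- strand) for Bid. Capitals mark a match to a searched motif.
Bcl2l11 promoter 1: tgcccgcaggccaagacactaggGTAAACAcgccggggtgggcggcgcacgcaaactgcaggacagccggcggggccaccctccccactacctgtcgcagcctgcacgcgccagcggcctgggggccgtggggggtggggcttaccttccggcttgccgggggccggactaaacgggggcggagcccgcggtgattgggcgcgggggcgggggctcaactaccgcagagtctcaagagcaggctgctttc
Bcl2l11 promoter 2: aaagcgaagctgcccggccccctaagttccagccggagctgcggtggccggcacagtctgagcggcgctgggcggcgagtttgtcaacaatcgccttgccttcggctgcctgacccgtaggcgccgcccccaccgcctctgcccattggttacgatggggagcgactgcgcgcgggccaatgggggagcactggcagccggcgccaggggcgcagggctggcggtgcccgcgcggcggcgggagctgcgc
Bid promoter: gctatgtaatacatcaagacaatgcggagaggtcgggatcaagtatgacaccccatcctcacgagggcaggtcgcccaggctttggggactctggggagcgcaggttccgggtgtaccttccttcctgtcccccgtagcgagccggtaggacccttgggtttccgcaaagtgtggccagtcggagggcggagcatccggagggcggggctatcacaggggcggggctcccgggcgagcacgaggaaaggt

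Promoters were found for 8 of 8 members, 12 in all, and were searched on both strands for the letters of 4 motifs. These were GTAAACA (FOXO), found in 3.17% of all 32851 mouse promoters of this length, a pair of GAAA with 2 bases of any kind between them (an interferon-stimulated response element, 2.98%), TTCNNNGAA (a GAS element, 7.02%) and GGGA and TCC with 3 bases of any kind between them (NF-kB, 3.86%). The first Bcl2l11 promoter held the FOXO letters on the + strand, starting 227 bases before the start, and overlapping no other motif. The Bak1 promoter held the NF-kB letters, 78 bases before the start, and the other 10 promoters held none of the 4. A match is a description of letters in this window and not a site shown to be used.

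Bid, which after cleavage by caspase 8 carries death receptor signals to the mitochondria, fell in every group given poly IC, in each by less than 2-fold. Its level was 8.42, 8.16, 8.35 and 7.94 in the PRR-/- samples and 8.45, 7.98, 7.99 and 8.05 in the IFNAR-/- samples at 4 h. The 8 WT samples at 4 h had a lowest level of 8.05, a median of 8.29 and a highest of 8.67, and the 8 unstimulated samples had 8.54, 8.91 and 9.05. Only the WT group at 4 h, by 1 sample, reached into the unstimulated range.

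The log2 change of Bid at 4 h was -0.63 ± 0.14 in PRR-/- DCs (limma adjusted p = 5.57e-04), -0.73 ± 0.14 in IFNAR-/- DCs (limma adjusted p = 2.72e-04) and -0.57 ± 0.11 in WT DCs (limma adjusted p = 1.14e-04). At 14 h it was -0.56 ± 0.15 in IFNAR-/- DCs (limma adjusted p = 0.0157) and -0.75 ± 0.12 in WT DCs (limma adjusted p = 8.45e-06). The fall in IFNAR-/- DCs at 14 h was less secure. With 1 sample left out it lay between -0.66 and -0.38, with limma adjusted p up to 0.219. With arrays brought to 1 median it was -0.45 and did not pass (limma adjusted p = 0.219). The differences of PRR-/- and IFNAR-/- from WT DCs did not pass at either time, with -0.06 (95% interval -0.34 to 0.22) for PRR-/- at 4 h, -0.16 (-0.44 to 0.12) for IFNAR-/- at 4 h and 0.19 (-0.13 to 0.52) for IFNAR-/- at 14 h. A second Bid probe was at or just above the floor in all groups, between 6.49 and 6.77, and could not show a fall.

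Bad, a BH3-only protein held inactive by phosphorylation, did not pass against unstimulated DCs in any group after quantile normalisation. At 4 h its change was -0.32 in PRR-/-, -0.15 in IFNAR-/- and -0.30 in WT DCs (limma adjusted p = 0.115, 0.635 and 0.0512). With arrays brought to 1 median it was -0.78, -0.38 and -0.80 (limma adjusted p = 5.26e-04, 0.138 and 2.09e-05). The median of all genes moved there by -0.26, -0.08 and -0.28. Its level was 8.93, 8.78 and 8.63 in the 3 IFNAR-/- samples at 14 h, and in the 6 WT samples at 14 h the lowest was 7.47, the median 8.49 and the highest 8.67. The IFNAR-/- samples lay at the top of the range of both groups, with an overlap at 1 edge, and the difference was 0.51 ± 0.18 (limma adjusted p = 0.0285). Bak1, the only effector measured, passed in no comparison. Its highest group mean was 6.92 in PRR-/- DCs at 4 h and its lowest 6.64 in WT DCs at 14 h, close to the floor, and that span of 0.28 was smaller than the SD of 0.33 in WT DCs at 4 h.

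Bcl2l1, which encodes BCL-XL, was the protective member that rose. Its level was 7.00, 7.01, 7.36 and 6.99 in the PRR-/- samples and 7.44, 7.51, 7.62 and 7.33 in the IFNAR-/- samples at 4 h. In WT samples at 4 h the lowest was 7.06, the median 7.62 and the highest 8.28, and in unstimulated samples these were 6.52, 6.70 and 6.83. No poly IC group at 4 h overlapped the unstimulated samples, which lay just above the floor of 6.49, so a fold from them may be too small.

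The log2 change of Bcl2l1 at 4 h was 0.39 ± 0.17 in PRR-/- DCs (limma adjusted p = 0.0836), 0.77 ± 0.17 in IFNAR-/- DCs (limma adjusted p = 0.0019) and 0.97 ± 0.14 in WT DCs (limma adjusted p = 2.14e-06). The direct difference between PRR-/- and WT DCs was -0.58 ± 0.17 with a 95% interval of -0.94 to -0.22, but did not pass after adjustment over all genes (limma adjusted p = 0.221). Within the 3 sets of alike samples that difference was -0.60 to -0.52. The summed signal of red pulp macrophage markers also differed between these groups, at 7617 to 12599 in PRR-/- and 3864 to 8531 in WT samples, with 3 of 9 tested markers called higher, and its part in the result was not tested.

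At 14 h Bcl2l1 was 6.93, 7.23 and 7.13 in the IFNAR-/- samples, and in the WT samples the lowest was 7.37, the median 7.71 and the highest 8.42. It was the only member whose brightest probe did not overlap between these groups, where 27.3% of all genes tested did not. The change against unstimulated DCs was 0.40 ± 0.19 in IFNAR-/- DCs (limma adjusted p = 0.228) and 1.08 ± 0.15 in WT DCs, 2.11-fold (limma adjusted p = 1.28e-06), and the difference between them was -0.68 ± 0.20 (limma adjusted p = 0.00899). Its interaction with time did not pass. The other 2 probes of Bcl2l1 were detected on few arrays and lay near the floor, the one on 0 of 3 IFNAR-/- and 2 of 6 WT arrays at 14 h and the other on 1 of 3 and 4 of 6. The genes most like Bcl2l1 over the 33 samples were Susd2, Anxa2 and Sphk1, with Pearson correlations of 0.895, 0.890 and 0.884.

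Bcl2 fell in WT DCs at 14 h. Its brightest probe read 7.38, 7.14 and 7.60 in the IFNAR-/- samples at 14 h, and in the WT samples at 14 h the lowest was 6.72, the median 6.91 and the highest 7.19. In unstimulated samples the lowest was 7.37, the median 7.65 and the highest 7.94, so that all 6 WT samples lay below them. By this probe the change was -0.27 ± 0.19 in IFNAR-/- DCs (limma adjusted p = 0.469) and -0.68 ± 0.15 in WT DCs (limma adjusted p = 3.42e-04). WT DCs at 14 h were also below WT DCs at 4 h by this probe, by 0.54 (limma adjusted p = 0.00482). With arrays brought to 1 median this difference was -0.25 and did not pass (limma adjusted p = 0.216). Of the other kept Bcl2 probes only ILMN_1249021 passed between these times, at -0.32 (limma adjusted p = 0.0263). At 4 h no genotype passed.

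The 6 kept probes of Bcl2 did not all read alike. The 3 probes on NM_009741 were higher in IFNAR-/- than in WT DCs at 14 h, by 0.61 (ILMN_1249021, limma adjusted p = 0.00169), 0.46 (ILMN_1249366, limma adjusted p = 0.0261) and 0.39 (ILMN_2706514, limma adjusted p = 0.0369). By ILMN_1249021 the 3 IFNAR-/- samples lay between 7.41 and 7.59 and the 6 WT samples between 6.49 and 7.29, without overlap. Of the 3 kept probes on NM_177410, the brightest gave 0.41 (limma adjusted p = 0.112), within the range of the NM_009741 probes, and the other two gave 0.02 and 0.03. Against unstimulated DCs the NM_009741 probes stood higher in IFNAR-/- DCs at 14 h, by 0.47 (ILMN_1249021, limma adjusted p = 0.0325), 0.46 (ILMN_1249366, limma adjusted p = 0.0570) and 0.32 (ILMN_2706514, limma adjusted p = 0.164), of which the first passed. By ILMN_1249021 and ILMN_1249366 the gap between IFNAR-/- and WT DCs also differed between 14 h and 4 h, with interactions of 0.95 (limma adjusted p = 8.71e-04) and 0.80 (limma adjusted p = 0.00775), and IFNAR-/- DCs were higher at 14 h than at 4 h by 0.63 (limma adjusted p = 0.0120) and 0.70 (limma adjusted p = 0.00981). The fall in WT DCs at 14 h against unstimulated DCs passed by 2 of the 3 NM_177410 probes, at -0.68 and, for ILMN_1215796, -0.25 (limma adjusted p = 0.0264). The third, ILMN_2597567, gave -0.14 (limma adjusted p = 0.322), and the 3 NM_009741 probes gave -0.15, -0.01 and -0.07 and did not pass. The remaining 2 Bcl2 probes were detected on no array. Differences between probes were not tested.

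**Figure D3:**
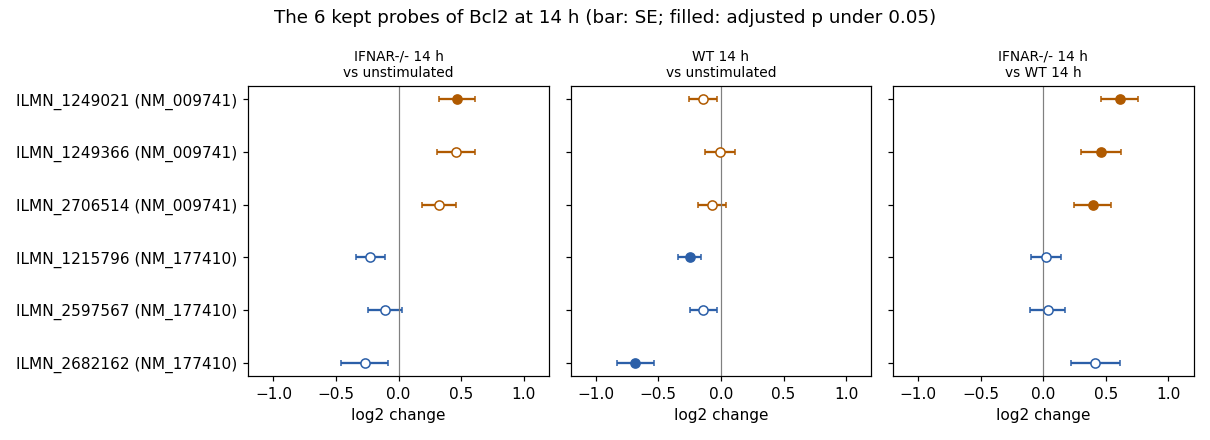
Log2 change (horizontal axis, with SE) of the 6 kept Bcl2 probes at 14 h, in 3 comparisons, coloured by the transcript each probe was designed on. The NM_009741 probes lie at 0.39 to 0.61 in IFNAR-/- against WT DCs at 14 h, and the NM_177410 probes at 0.02, 0.03 and 0.41.

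Mcl1, the short-lived protective member, differed between the 2 times in WT DCs. In WT samples at 14 h the lowest level was 13.40, the median 13.54 and the highest 13.92, in WT samples at 4 h these were 12.48, 13.13 and 13.34, and in unstimulated samples 12.98, 13.44 and 13.64. The WT groups at the 2 times did not overlap. Mcl1 was lower by 0.36 in WT DCs at 4 h than in unstimulated DCs (limma adjusted p = 0.0236), and these 2 groups overlapped. With 1 sample left out the limma adjusted p of that change reached 0.0633. With arrays brought to 1 median the change was -0.29, where the median of all genes moved by -0.28. Mcl1 was higher by 0.60 ± 0.14 in WT DCs at 14 h than at 4 h (limma adjusted p = 0.00118). Its changes in PRR-/- DCs at 4 h (-0.21), IFNAR-/- DCs at 4 h (-0.16) and IFNAR-/- DCs at 14 h (-0.07) did not pass.

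Counted over the 7 members by their brightest probes, the comparisons with unstimulated DCs at 4 h called 1 member in each genotype, Bcl2l11. In PRR-/- DCs 1 of 7 was called, where 7.28% of all genes tested were, 2 passed by adjusted p alone, where 37.3% did, and 3 did not overlap, where 20.8% did not. In IFNAR-/- DCs 1 of 7 was called, against 2.96% of all genes, 3 passed by adjusted p alone, against 18%, and 3 did not overlap, against 10.6%. In WT DCs 1 of 7 was called, against 7.19% of all genes, 4 passed by adjusted p alone, against 46.5%, and 2 did not overlap, against 17.9%. The shares of members that passed by adjusted p alone were thus near those of all genes in PRR-/- and WT DCs.

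Between the genotypes at 4 h none of the 7 members was called, passed by adjusted p alone or was free of overlap by its brightest probe, while ILMN_1229255 of Bcl2l11 passed by adjusted p alone in both comparisons. Between PRR-/- and WT DCs these shares over all genes were 0.302%, 0.583% and 0.802%, and between IFNAR-/- and WT DCs 4.62%, 25.9% and 18.8%. By the brightest probes the methods' own test called 0 in both as well, and at an unadjusted level only the difference of Bcl2l1 between PRR-/- and WT DCs had a 95% interval clear of 0.

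At 14 h, IFNAR-/- DCs had 1 of 7 called against unstimulated DCs, Bcl2l11, where 2.48% of all genes were called, 2 passed by adjusted p alone, where 10.7% did, and 3 did not overlap, where 11% did not. WT DCs had 2 of 7 called, Bcl2l11 and Bcl2l1, against 11% of all genes, 4 passed by adjusted p alone, against 47.3%, and 4 did not overlap, against 18.1%. Between IFNAR-/- and WT DCs at 14 h, Bcl2l11 was the 1 member called, where 9.63% of genes were, and Bcl2l11, Bcl2l1 and Bad, 3 of 7, passed by adjusted p alone, where 33.3% did, which is close to the share of members. The interaction of genotype with time called none of the 7 and passed none by adjusted p alone by the brightest probes, where 7.02% and 17.2% of genes did.

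Between the times, Bcl2l11 was lower at 14 h than at 4 h in IFNAR-/- DCs, with a change of -1.04 ± 0.30 (limma adjusted p = 0.0268). It was the 1 member called there and, by the brightest probes, the 1 that passed by adjusted p alone, where 1.96% and 7.58% of genes did, and 3 members did not overlap, where 19.9% of genes did not. In WT DCs none was called, where 6.33% of genes were, Bcl2 and Mcl1 passed by adjusted p alone, 2 of 7, where 37.3% did, and 1 did not overlap, where 13.3% did not. The 2 comparisons between times were added after values had been seen, and the comparisons with unstimulated DCs share the same 8 control samples.

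By role, the 3 protective and the 3 BH3-only members did not move as groups. In IFNAR-/- DCs at 14 h the log2 changes of the protective members lay between -0.27 and 0.40 and those of the BH3-only members between -0.56 and 1.01. In WT DCs at 14 h the protective members stood at -0.68 (Bcl2), 0.23 (Mcl1) and 1.08 (Bcl2l1), and the BH3-only members at -0.75 (Bid), -0.13 (Bad) and 2.06 (Bcl2l11).

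**Figure D4:**
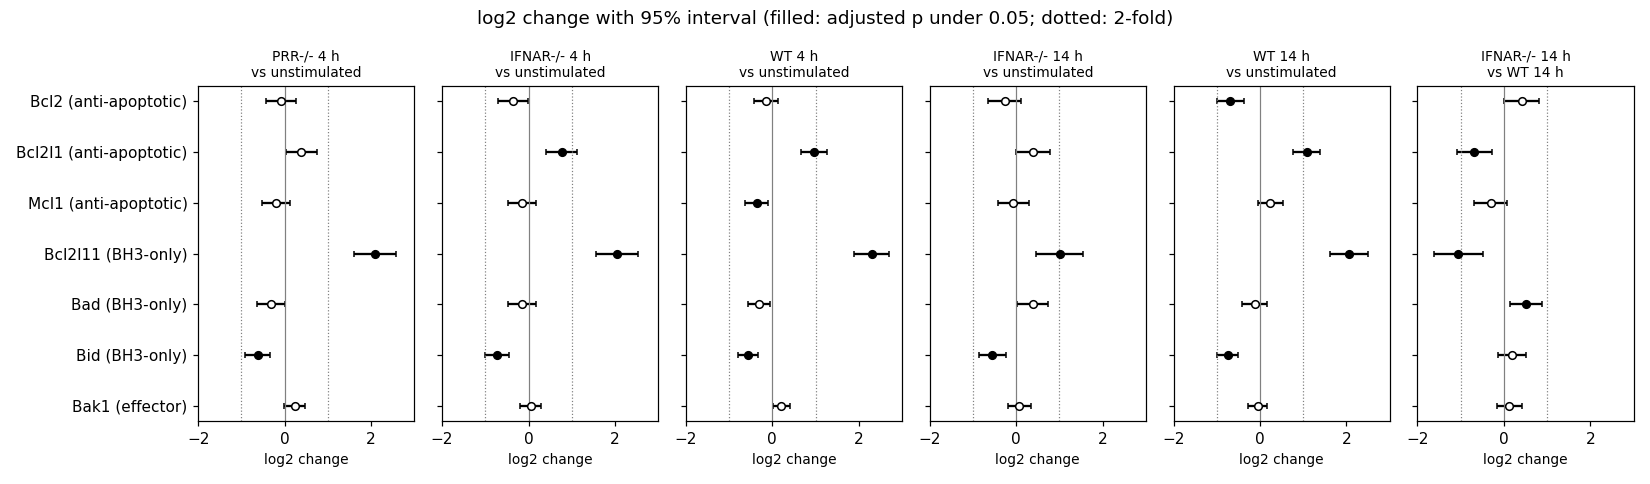
Log2 change (horizontal axis, point with 95% interval) of the 7 members in 6 comparisons. A filled point has a limma adjusted p under 0.05, dotted lines mark 2-fold, and Bcl2l11 is filled in each of the 6, at 2.05 to 2.30 in the groups at 4 h and at 1.01 in IFNAR-/- DCs at 14 h.

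The relation of the 7 members to the monocyte sum was examined within the 6 WT samples at 14 h, and none passed after adjustment. Bcl2l11 had a Pearson r of -0.884 (exact permutation p = 0.0139, adjusted over 7 members 0.0583; Spearman rho = -0.943, exact p = 0.0167, adjusted 0.117), and r was -0.855 without the 2 samples farthest from the median sum. Bcl2l1 had r = -0.902 (exact permutation p = 0.0458, adjusted 0.0875; rho = -0.771, exact p = 0.103, adjusted 0.180). Bcl2 had r = 0.900 (exact permutation p = 0.0167, adjusted 0.0583; rho = 0.886, exact p = 0.0333, adjusted 0.117), which was 0.599 without those 2 samples. The other 4 members had r = 0.831 (Bid), 0.489 (Bad), 0.016 (Bak1) and -0.437 (Mcl1). These relations were examined after the marker values had been seen. No batch is given in the labels for these 6 samples.

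Other genes of the family were read from a list of 18, of which 15 were annotated and 10 tested. Bcl2l14, a little studied relative, had the largest change among them. It was 7.93, 7.72 and 8.58 in the IFNAR-/- samples at 14 h, and in the WT samples at 14 h the lowest was 9.41, the median 10.28 and the highest 10.96. In unstimulated samples the lowest was 6.78, the median 7.16 and the highest 8.11, so the WT samples lay above both other groups. Bcl2l14 rose by 2.99 ± 0.36, 7.94-fold, in WT DCs at 14 h (limma adjusted p = 9.61e-08) and differed by -2.14 ± 0.48 between IFNAR-/- and WT DCs at 14 h (limma adjusted p = 7.39e-04), and it was higher in WT DCs at 14 h than at 4 h by 1.40 (limma adjusted p = 0.00282).

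At 4 h Bcl2l14 rose by 1.06 in PRR-/- DCs (limma adjusted p = 0.0430) and by 1.59 in WT DCs (limma adjusted p = 2.69e-04), and the change of 1.15 in IFNAR-/- DCs did not pass (limma adjusted p = 0.0513). The samples at 4 h were split, since the PRR-/- sample and the IFNAR-/- sample numbered 1-2 had 7.14 and 7.07 and WT samples 1 and 2 had 7.55 and 7.35, while all others at 4 h lay between 8.47 and 9.44. The low samples were those that made up, at 4 h, 1 of the 3 sets of alike samples described above. The part of the sets in the changes of Bcl2l14 was not tested. Pmaip1, which encodes the BH3-only protein NOXA, fell by 1.03 in WT DCs at 14 h (limma adjusted p = 1.27e-04), its only call. With 1 sample left out, in a check added after the values were seen, the call of Bcl2l14 in PRR-/- DCs was lost in 10 of the 12 cases, with changes of 0.91 to 1.07 and limma adjusted p up to 0.143, and it was gained in IFNAR-/- DCs at 4 h without IFNAR-/- sample 1-2 (1.59, limma adjusted p = 0.00833) or unstimulated sample 5 (1.28, limma adjusted p = 0.0293). The fall of Pmaip1 went under 2-fold without WT sample 2, 3 or 5 at 14 h or unstimulated sample 1-2 or 7, at -0.99 to -0.90.

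The mouse Bcl2a1 genes, protective relatives known as NF-kB targets, were read by Bcl2a1c and Bcl2a1d probes. Bcl2a1d was higher at 4 h by 0.88 in PRR-/-, 0.94 in IFNAR-/- and 0.99 in WT DCs, and Bcl2a1c by 0.75, 0.89 and 0.83, all with a limma adjusted p of 7.17e-05 or less and all under 2-fold, and Bcl2a1d passed 2-fold, at 1.01 to 1.05, when any of several single samples was left out. At 14 h neither passed against unstimulated DCs, and Bcl2a1d was lower at 14 h than at 4 h by 0.74 in IFNAR-/- and 0.98 in WT DCs. These genes are near-identical copies, so which copy was read is uncertain. Of the 10 tested relatives, the comparisons with unstimulated DCs called 1 in PRR-/-, 0 in IFNAR-/- and 1 in WT DCs at 4 h, where 7.28%, 2.96% and 7.19% of all genes were called. At 14 h they called 0 in IFNAR-/- and 2 in WT DCs, where 2.48% and 11% were. With so few genes these counts are near what the shares of all genes give. The median change of the 10 was 0.20 in IFNAR-/- DCs at 14 h and 0.00 in WT DCs at 14 h, against -0.01 and -0.01 over all genes tested.

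Partners and regulators of mitochondrial apoptosis were read from a list of 35, of which 31 were annotated and 29 tested. Apaf1, the scaffold on which cytochrome c activates caspase 9, rose by 1.47 in both PRR-/- (limma adjusted p = 1.73e-05) and WT DCs (limma adjusted p = 4.74e-07) at 4 h and by 1.05 in WT DCs at 14 h (limma adjusted p = 1.46e-04). It was 11.00, 10.90 and 10.73 in the IFNAR-/- samples at 14 h and between 11.20 and 13.27 in the WT samples, without overlap, a difference of -1.10 (limma adjusted p = 0.00251). In IFNAR-/- DCs at 4 h Apaf1 was higher than unstimulated by 0.76 (limma adjusted p = 0.0257) and lower than WT by 0.71 (limma adjusted p = 0.0294). The calls of Apaf1 at 14 h rested in part on WT sample 6, without which the change in WT DCs was 0.79 (limma adjusted p = 3.16e-04) and the difference of IFNAR-/- from WT DCs -0.84 (limma adjusted p = 0.00329), both under 2-fold. The change in WT DCs was also under 2-fold without WT sample 2 (0.99) or unstimulated sample 9 (0.94).

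Htra2, a mitochondrial protease released with cytochrome c, rose by 1.30 in WT DCs at 14 h (limma adjusted p = 2.14e-11). Its level lay between 9.58 and 9.78 in the IFNAR-/- samples and between 10.20 and 10.94 in the WT samples at 14 h, without overlap. That difference was under 2-fold and was not called. At 4 h the order was the reverse, with 9.84 to 10.16 in the IFNAR-/- samples and 9.49 to 9.80 in the WT samples, also without overlap. Dnm1l, which encodes the fission protein DRP1, rose by 1.14 in WT DCs at 14 h (limma adjusted p = 7.96e-05), was higher there than at 4 h by 1.13 (limma adjusted p = 1.44e-04), and differed by -1.09 between IFNAR-/- and WT DCs at 14 h (limma adjusted p = 0.00356). For these 2 genes the gap between IFNAR-/- and WT DCs differed between 14 h and 4 h, with interactions of -1.25 for Htra2 (limma adjusted p = 5.38e-06) and -1.23 for Dnm1l (limma adjusted p = 0.0227). Without WT sample 6 at 14 h, Dnm1l was under 2-fold in each comparison at 14 h, with 0.95 against unstimulated DCs (limma adjusted p = 3.92e-04), 0.93 against WT DCs at 4 h (limma adjusted p = 6.54e-04) and -0.90 for IFNAR-/- minus WT DCs (limma adjusted p = 0.00949). That last difference was -0.95 without IFNAR-/- sample 1 at 14 h, and the interaction did not pass without that sample, IFNAR-/- sample 2 at 14 h or IFNAR-/- sample 1-2 at 4 h (limma adjusted p = 0.0597 to 0.0848).

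Bag3, a co-chaperone that binds BCL2, rose by 1.57 in PRR-/- DCs at 4 h (limma adjusted p = 1.10e-04), by 1.14 in WT DCs at 4 h (limma adjusted p = 2.64e-04) and by 1.18 in IFNAR-/- DCs at 14 h (limma adjusted p = 0.0183), which was 0.87 without IFNAR-/- sample 1 and did not pass (limma adjusted p = 0.203). Pim3, a kinase that can phosphorylate BAD, was higher in IFNAR-/- than in WT DCs at 4 h by 1.43 (limma adjusted p = 4.75e-04), with 11.44, 12.61, 12.52 and 12.27 in the IFNAR-/- samples, against 10.21 to 11.31 in the WT samples. These IFNAR-/- and WT groups did not overlap. The unstimulated samples spanned 10.98 to 13.05, which covers the IFNAR-/- samples at 4 h. Their mean of 11.57 lay between 10.78 in WT and 12.21 in IFNAR-/- DCs at 4 h. Of the 29 tested genes, the comparisons with unstimulated DCs called 2 in PRR-/-, 0 in IFNAR-/- and 2 in WT DCs at 4 h, beside the 7.28%, 2.96% and 7.19% of all genes. At 14 h they called 1 in IFNAR-/- and 3 in WT DCs, beside 2.48% and 11%, so these counts too were near the background. With 1 sample left out they were 2 to 3, 0 to 1 and 2 at 4 h and 0 to 2 and 1 to 3 at 14 h, the 0 without IFNAR-/- sample 1 and the 1 without WT sample 6. Between IFNAR-/- and WT DCs at 14 h 2 of the 29 were called, beside 9.63% of all genes, and 0 without WT sample 6.

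**Figure D5:**
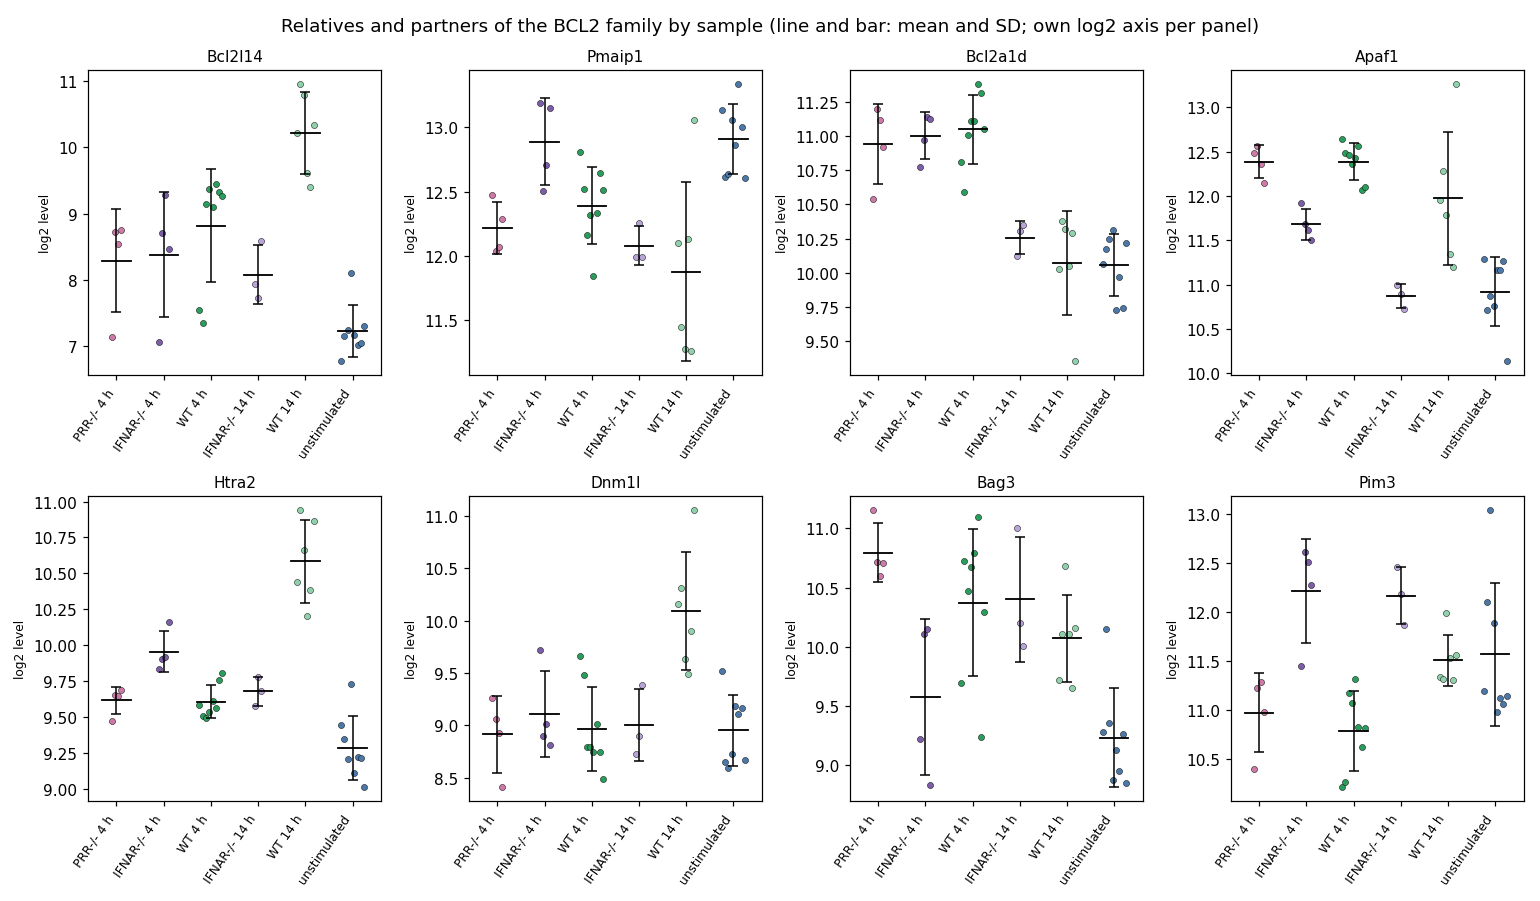
Log2 level of 8 relatives and partners of the family in every sample (vertical axis, own range in each panel), by group, with mean and SD. Bcl2l14, Htra2 and Dnm1l lie highest in WT samples at 14 h, and Bcl2a1d lies higher in the samples at 4 h than in most others.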

How the data were processed

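RNA of sorted DCs was hybridised to Illumina mouseRef-8 BeadChips, 36 arrays in all. The authors extracted bead signals with BeadStudio; the deposited files give, per array, linear intensity signals that were not normalised and a detection p-value for each of 25697 probes. The authors also deposited a log2 value table from GeneSpring (quantile normalised, centred on the median of samples), which correlated with the values made here at 0.967 to 0.990 per array and served as an alternative; its scale and direction follow from that comparison.

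Here, a floor was set on each array at the smallest signal whose detection p-value was under 0.05 (74.4 to 107.6), lower signals were raised to it, and log2 values were quantile normalised. Probes detected on at least 3 arrays and with 1 symbol were kept (13328), and a gene was its kept probe of highest mean. Of all probes, 1719 had no single symbol. Detected probes per array were 40.6% to 48.0% of the total, and the number of arrays limits the precision. The difference between 2 arrays of a group was measured as the scaled median absolute deviation of the log2 differences over genes. It was 0.0739 to 0.0820 between arrays 1 and 2 in unstimulated, PRR-/- 4 h and IFNAR-/- 4 h DCs. In the 99 other pairs of a group it was 0.108 to 0.429. Arrays 1 and 2 of each of those groups were counted as 1 sample, which leaves 33. limma 3.58.1 (R 4.3.3) fitted 1 mean per group, with Benjamini-Hochberg adjustment over 9606 genes. It was tested on simulated data with known changes.

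Replicate numbers in the labels were taken to pair samples where every pair's deviations correlated over 0.1. This held only for PRR-/- 4 h and IFNAR-/- 4 h against unstimulated DCs (0.124 to 0.688 and 0.317 to 0.741). There 3 of 4 and 4 of 4 samples were most like the one of their own number. Single pairs elsewhere were alike too, up to 0.921 between PRR-/- and WT DCs at 4 h, and the sets of alike samples also held WT samples at 4 h. Alternatives covered background, scaling, filter, probe choice, samples in the fit, blocks, test and left-out samples. Named were the members in every comparison, each list gene called in any, and the 3 genes most like each called member; Bcl2a1c and Bcl2a1d were added after their values were seen. Members and lists were chosen with earlier results of these data known. No protein or probe sequences were used here.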

Additional observations from a re-analysis of the deposited data

Results flagged for a closer look

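In 2 of the 35 groups of members that could be tested for a stray sample, 1 sample lay far from the others, and chance alone flags about 1 group in 20. Bcl2l1 was 7.36 in PRR-/- replicate 4 at 4 h, where the other PRR-/- samples lay between 6.99 and 7.01. Bid was 8.45 in the IFNAR-/- sample 1-2 at 4 h, where the others lay between 7.98 and 8.05. At 14 h 3 members differed between IFNAR-/- and WT DCs by the limma test of the difference itself, Bcl2l11 by -1.05 (adjusted p = 0.00351), Bcl2l1 by -0.68 (adjusted p = 0.00899) and Bad by 0.51 (adjusted p = 0.0285). None of the 3 held under every setting. For Bcl2l11 the limma adjusted p was at most 0.0373 with 1 sample left out. Under other settings its adjusted p reached 0.166, and 8 of the 13 settings called it. For Bad the change was 0.35 to 0.45 without WT sample 1 or 6 or IFNAR-/- sample 1 and 0.51 without IFNAR-/- sample 3, with limma adjusted p of 0.0612 to 0.137, and under other settings the adjusted p reached 0.291. For Bcl2l1 the adjusted p was 0.0612 without IFNAR-/- sample 1 and at most 0.136 under other settings.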

How the results depend on the processing

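No member reversed its direction where it was called. Of the tests of single members under other settings, 959 stayed on their side of the threshold, 17 lost and 18 gained a call, and with 1 sample left out these were 964, 14 and 2. In WT DCs at 4 h the 1 member called became 2 with model-based background, 2 with arrays brought to 1 median, 4 with no fold limit, and 1 to 2 with 1 sample left out (2 without WT sample 3 or 8, when Bcl2l1 passed 2-fold). In PRR-/- DCs at 4 h 1 became 2 with 1 median and 2 with no fold limit, and in IFNAR-/- DCs at 4 h 1 became 2 with model-based background and 3 with no fold limit. In WT DCs at 14 h 2 became 1 with the mean of kept probes and 4 with no fold limit, and ranged from 1 to 2 with 1 sample left out (1 without WT sample 6). Bcl2 was called there in 2 of the 13 other settings, the one with no fold limit among them. Its change reached -1.06, so that 1 setting with the fold limit added Bcl2 to the members called. In IFNAR-/- DCs at 14 h against unstimulated DCs the 1 call, Bcl2l11, became 0 with the mean of kept probes, with all 36 arrays, with the replicate block and with the methods' t-test, 2 members passed with no fold limit, and the range was 0 to 1 with 1 sample left out (0 without unstimulated sample 3, 6, 7 or 9 or IFNAR-/- sample 3). Between IFNAR-/- and WT DCs at 14 h it became 0 with 1 median, the mean of kept probes, only the groups compared, the replicate block and the methods' t-test, 3 passed with no fold limit, and the range was 0 to 1 (0 without WT sample 2 or 6 or IFNAR-/- sample 1 or 2). In WT DCs at 14 h against 4 h 0 became 2 with no fold limit. Between 14 h and 4 h in IFNAR-/- DCs 1 became 0 with 1 median, no filter on dim probes, the mean of kept probes, only the groups compared, the replicate block, the methods' t-test and sets of samples as a block, and the range was 0 to 1 (0 without IFNAR-/- sample 1-2 or 4 at 4 h or 1 or 2 at 14 h). The cause of these changes was not tested. The replicate block changed no other count of members called. Bcl2l11 was called at 4 h in each genotype and in WT DCs at 14 h under each of the 13 other settings and with any 1 sample left out. Bringing arrays to 1 median moved the median of all genes by -0.28 in WT and -0.26 in PRR-/- DCs at 4 h. Detection limits Bak1, the unstimulated level of Bcl2l1 and the dim probes of Bcl2l11.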
